A study of Mus musculus with 13 samples.

Results

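The genes described here are 35 glutamate receptor subunits, receptor auxiliary subunits and postsynaptic scaffold or kinase genes of mouse claustrum neurons. They were taken by name and not by a cutoff on a measured value, though with earlier results of these data known. All 35 were found among the 23427 gene entries of the count tables. Single cells were harvested by hand from microdissected claustrum of 4 mature male C57BL/6 mice and sequenced in 13 plates. In 1 mouse, here the blindly sampled mouse, a retrograde GFP virus injected in the anterior cingulate cortex guided the dissection, and cells were picked without regard to GFP. In projection mice 1 to 3, green retrobeads (fluorescent tracer microspheres carried back to the cell body) marked cells that project to the lateral entorhinal cortex (LEC) and red ones those that project to the retrosplenial cortex (RSC), and cells of the same mice without a label were also taken. All 4 mice were thus traced animals of 1 strain and 1 sex. The sample titles call the blindly sampled mouse WT with no projection, and the others projection without a genotype. Cells with at least 1 count of Snap25, a neuronal gene, and of Slc17a7, the vesicular glutamate transporter of cortical excitatory cells, were kept, which left 1011 of 1112. The gene Synpr, for the vesicle protein synaptoporin, divided them into 438 Synpr-high cells (a CPM, the count scaled by the cell's total, of at least 200) and 573 Synpr-low cells.

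Fast excitatory transmission in cortex runs through AMPA, NMDA and kainate receptors, which are channels of 4 subunits whose makeup sets their speed, calcium entry and modulation. Metabotropic glutamate receptors act more slowly through G proteins, and lie on both sides of the synapse. Scaffolds of the Dlg, Shank and Homer families hold receptors in the postsynaptic density, where the kinase CaMKII is among the most abundant proteins.

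The counts of a mouse's cells were added up within each class, and tests ran over mice. The sums held 3461016 to 27601436 counts in the Synpr-high class and 3918760 to 27121655 in the Synpr-low class, the lowest in each being that of the blindly sampled mouse. The sources do not say which plates shared a sequencing run. Mouse and depth cannot be told apart here, nor can the run if that mouse had its own. Counts of the 35 genes over all kept cells ran from 1 for Grin2c to 96879 for Gria2. Grin2c, Grin2d, Grik1 and Homer3, at 1 to 53 counts, did not pass the filter on low counts and were not tested, and Grin2c and Grin2d were not listed for the blindly sampled mouse and were taken there as 0. Reads come from the 3′ ends of transcripts, so levels are compared between groups of cells and not between genes. Synpr stood at 1762 ± 188 CPM in Synpr-high sums and 9.07 ± 3.64 in Synpr-low sums (SD, n = 4), which is the rule of the split, and 26 kept cells lay between 100 and 500 CPM.

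Of the 31 genes tested, 7 differed between Synpr-high and Synpr-low cells. Gria4, Grin3a and Neto2 were higher in Synpr-high cells, and Gria3, Grik3, Grm3 and Grm8 were lower. A gene passed at an adjusted p under 0.05 (edgeR, quasi-likelihood F test, p adjusted by Benjamini-Hochberg across the 13640 genes tested), as did 8.81% of all genes (610 higher and 592 lower). The median log2 fold change was -0.20 over the 31 genes and -0.0007 over all genes, and the median size without regard to sign was 0.25 and 0.28. The values of the 4 Synpr-high sums and the 4 Synpr-low sums did not overlap for 9 of the 31, while 15.5% of all tested genes showed no overlap. With the mouse as a block, 9 of the 31 passed, against 14.6% of all genes, the additions being Gria1 and Grik4.

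**Figure D1:**
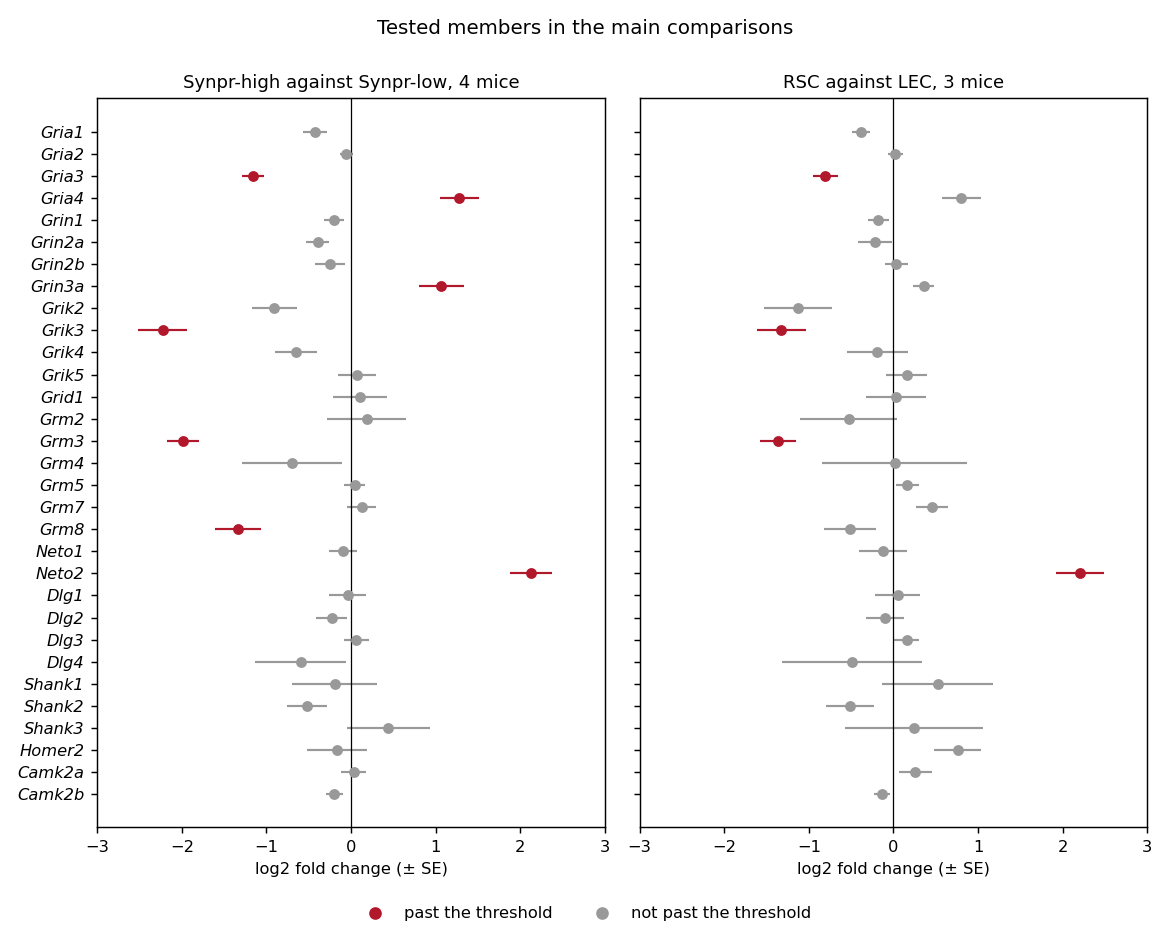
Log2 fold change ± SE of the 31 tested genes (x axis) for Synpr-high against Synpr-low sums of 4 mice on the left and RSC against LEC sums of 3 mice on the right, with red points for genes past the threshold. The left panel has 7 red points, 3 to the right of 0 and 4 to the left, and the right panel has 4, of which Neto2 is the one to the right of 0.

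Among the AMPA receptor subunits, Gria3 and Gria4 moved in opposite directions. Gria3, which encodes GluA3, stood at 109.9, 109.8 and 104 CPM in the Synpr-high sums of projection mice 1, 2 and 3 and at 100.05 in the blindly sampled one, and at 292, 228, 221 and 208 in the Synpr-low sums in the same order. Every Synpr-high sum was below every Synpr-low sum. The log2 fold change of Gria3 was -1.16 ± 0.13 (SE), with an edgeR adjusted p of 0.000361, and it passed in 17 of 17 alternative analyses. Gria4, which encodes the fast GluA4 subunit, stood at 131, 139, 120.3 and 91.6 CPM in Synpr-high sums and at 40.2, 71.3, 52.85 and 33.7 in Synpr-low sums, again without overlap. Its log2 fold change was 1.28 ± 0.23 with an edgeR adjusted p of 0.00711, and adjusted p ran from 3.3e-06 to 0.0744 over the alternatives. The call was lost without projection mouse 1 (0.0744) or without projection mouse 3 (0.0631).

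Gria2, whose edited product keeps AMPA receptors impermeable to calcium, was close in both classes, at 706 ± 27.9 and 733 ± 18.5 CPM (SD, n = 4). Gria1 was lower in Synpr-high cells in 4 of 4 mice. It stood at 205, 225, 192 and 163 CPM against 267, 288.5, 294 and 204. The classes overlapped because the Synpr-low value of the blindly sampled mouse, 204, was under the Synpr-high values 205 and 225. With the classes compared without pairing, its log2 fold change of -0.42 ± 0.14 did not pass (edgeR adjusted p = 0.111), while with the mouse as a block it did (-0.42 ± 0.08, edgeR adjusted p = 0.00797, range over alternatives 0.00738 to 0.449).

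Of the NMDA receptor subunits, Grin3a stood apart. It encodes GluN3A, a subunit that lowers calcium entry and magnesium block. Synpr-high sums held 166, 190.1, 211 and 138 CPM and Synpr-low sums 88.0, 103, 104 and 40.6, with no overlap. The log2 fold change of Grin3a was 1.07 ± 0.27 with an edgeR adjusted p of 0.0335, and the alternatives gave adjusted p from 0.000728 to 0.143. It was lost when projection mouse 1 (0.143), 2 (0.121) or 3 (0.130) was left out. The obligatory subunit Grin1 stood at 158 ± 15.3 against 182 ± 17.1 CPM, Grin2a at 63.1 ± 2.82 against 82.9 ± 11.5 and Grin2b at 189.6 ± 22.8 against 226 ± 63.4. None of the last 3 passed, although each was lower in Synpr-high cells in 4 of 4 mice and Grin2a did not overlap. Grin2a passed with a Synpr limit of 500 CPM alone (log2 fold change -0.48 ± 0.13, edgeR adjusted p = 0.0474, range over alternatives 0.0474 to 0.434). Grin2d had 11 counts in Synpr-high and 29 in Synpr-low sums. Grin2c had 1 count in the Synpr-high sums and 0 in the Synpr-low sums, a level at or under the floor of 3 counts in both.

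Kainate receptor genes and their auxiliary subunits gave the largest changes in either direction, Grik3 down and Neto2 up. Grik3 encodes the low-affinity subunit GluK3. Its level was 15.6, 18.8, 11.9 and 6.23 CPM in the Synpr-high sums and 65.3, 59.1, 53.0 and 73.6 in the Synpr-low sums, so that the lowest Synpr-low sum was well above the highest Synpr-high sum. This was a log2 fold change of -2.23 ± 0.29 (edgeR adjusted p = 0.000933), and it passed in 17 of 17 alternatives. Neto2, a transmembrane protein that binds kainate receptors and slows their desensitization, stood at 21.6, 22.1, 20.9 and 29.9 CPM against 6.35, 4.43, 6.22 and 4.25. All Synpr-high sums exceeded all Synpr-low sums. The log2 fold change of Neto2 was 2.13 ± 0.25 (edgeR adjusted p = 0.000524), also past the threshold in 17 of 17 alternatives. Its relative Neto1 was alike in level, at 25.1 ± 1.87 against 26.8 ± 3.34 CPM.

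The other kainate subunits differed less. Grik2 was lower in Synpr-high sums in 4 of 4 mice without overlap (7.72 ± 1.81 against 14.5 ± 1.97 CPM), with a log2 fold change of -0.91 ± 0.27 that missed the threshold (edgeR adjusted p = 0.0674). DESeq2 gave Grik2 an adjusted p of 0.0238, and the range over the alternatives was 0.0238 to 0.310. Grik4, a high-affinity subunit, was at 14.3 ± 3.57 against 22.3 ± 4.73 CPM and passed with the mouse as a block (log2 fold change -0.65 ± 0.18, edgeR adjusted p = 0.0488, range 0.0455 to 0.380). Grik5, the other high-affinity subunit, was at 33.0 ± 9.34 against 31.6 ± 5.28 CPM. Grik1 had 44 counts in Synpr-high and 9 in Synpr-low sums, and its level in the Synpr-high sum of the blindly sampled mouse, 4.68 CPM, was well above the 0.0814 to 0.684 of the others.

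The promoter windows of Neto2 and Grik3 are shown because these genes changed most in each direction. They come from the RefSeq table (GRCm38.p6, a later build than that named for the counts), run from 250 bases before to 50 after the start, and are written 5′ to 3′ on the strand of the gene, minus for Neto2 at chr8:85700875-85701174 and plus for Grik3 at chr4:125490446-125490745. Capitals mark GGGCGG or its reverse complement, a motif known as the GC box. Neto2 has a second listed start, whose window holds no match.
Neto2: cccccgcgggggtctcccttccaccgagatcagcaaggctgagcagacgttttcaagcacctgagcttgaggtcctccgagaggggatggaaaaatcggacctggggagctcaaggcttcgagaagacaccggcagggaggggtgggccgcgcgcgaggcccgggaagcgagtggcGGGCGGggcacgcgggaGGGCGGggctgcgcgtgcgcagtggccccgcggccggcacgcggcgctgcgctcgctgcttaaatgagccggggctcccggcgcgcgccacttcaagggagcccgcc
Grik3: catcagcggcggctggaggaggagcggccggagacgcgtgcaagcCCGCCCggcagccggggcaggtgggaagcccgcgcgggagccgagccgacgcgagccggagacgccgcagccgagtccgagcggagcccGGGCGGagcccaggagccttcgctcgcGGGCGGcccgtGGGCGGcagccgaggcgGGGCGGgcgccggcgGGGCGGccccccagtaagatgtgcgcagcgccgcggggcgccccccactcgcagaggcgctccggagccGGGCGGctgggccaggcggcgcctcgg
The Neto2 window holds 2 matches and the Grik3 window 7. Of all 32851 windows 35.7% hold at least 1 match, and of the 35 windows of the 22 matched genes 54.3% do. By gene, 17 of the 22 had a window with a match, called or not. Among the 7 genes called, 5 were matched and 4 held a match on either strand, namely Grik3, Grm3, Grm8 and Neto2, while Gria4 held none.

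Group II and group III metabotropic receptors, which couple to inhibitory G proteins, held the remaining calls. Grm3 encodes mGlu3, which astrocytes also make. It stood at 17.2, 13.1, 18.003 and 18.7 CPM in Synpr-high sums and at 78.8, 53.5, 58.5 and 75.4 in Synpr-low sums, a wide gap with no overlap. The log2 fold change of Grm3 was -1.99 ± 0.19 (edgeR adjusted p = 0.000175), and it passed in 17 of 17 alternatives. Grm8, a presynaptic group III receptor, was at 17.8, 11.4, 10.3 and 10.3 CPM against 39.1, 24.7, 39.7 and 22.8. Its log2 fold change of -1.34 ± 0.27 had an edgeR adjusted p of 0.0118, from 0.000113 to 0.125 over the alternatives, and the call was lost without projection mouse 2 (0.0581) or 3 (0.125). The rest of the family did not pass: Grm2, the other group II receptor, at 6.17 ± 2.23 against 5.37 ± 2.90 CPM, Grm5, a postsynaptic receptor coupled to calcium release, at 126 ± 16.1 against 123 ± 9.54, Grm7 at 50.7 ± 8.46 against 46.6 ± 7.06 and Grm4 at 1.38 ± 0.39 against 2.31 ± 1.05. The delta receptor Grid1, a synaptic adhesion partner of cerebellins, was at 20.04 ± 9.14 against 18.5 ± 5.36 CPM.

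None of the scaffold or kinase genes named in this paragraph passed between the Synpr classes. Other scaffold and kinase genes, among them Homer1, Dlgap4 and Camk2g, were tested in a separate list described below and did pass. Of the Dlg family, which includes PSD-95, Dlg1 stood at 49.5 ± 14.3 against 50.8 ± 7.88 CPM, Dlg2 at 31.1 ± 6.07 against 36.5 ± 5.38, Dlg3 at 74.7 ± 8.09 against 71.4 ± 9.80 and Dlg4 at 2.86 ± 1.62 against 4.15 ± 1.41. Shank2 was at 14.7 ± 2.90 against 21.2 ± 4.45 CPM (edgeR adjusted p = 0.247), while Shank1 and Shank3 reached at most 6.15 CPM in any Synpr-high or Synpr-low sum. Homer2 was at 18.7 ± 6.37 against 21.5 ± 9.71 CPM and Homer3 had 17 and 21 counts. Camk2a, the alpha subunit of CaMKII, was at 171 ± 27.0 against 167 ± 23.1 CPM. Camk2b, the beta subunit, was lower in Synpr-high sums in 4 of 4 mice, at 569.8 ± 49.5 against 653 ± 60.8 CPM, without passing (edgeR adjusted p = 0.311, range over alternatives 0.0502 to 0.597).

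The same directions were seen between cells of 1 plate. In 12 plates with at least 5 cells of each class, Gria4 and Grin3a were higher in Synpr-high cells in 12, Neto2 in 11, Grm8 in 3, Grm3 in 1 and Gria3 and Grik3 in 0. Camk2b was also higher in 0 of 12, with a median log2 ratio of -0.24, and Gria1 in 1. Markers of other cells were summed for each class. The inhibitory list was above 90 CPM in the Synpr-high sums of projection mice 1 and 3 (95.5 and 143) and at 0 to 33.0 CPM in the other 6 sums. Without the 20 kept cells that had a count of Gad1 or Gad2, the same 7 genes passed, with log2 fold changes of 1.28 for Gria4, 1.04 for Grin3a and 2.13 for Neto2. The astrocyte list ran from 135 to 166 CPM in Synpr-high and from 81.4 to 361 in Synpr-low sums. Oligodendrocyte markers ran from 51.5 to 412 and from 55.9 to 694 CPM, and markers of oligodendrocyte precursors, microglia and endothelium stayed at or under 30.8 CPM. Their part in the differences was not tested.

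**Figure D2:**
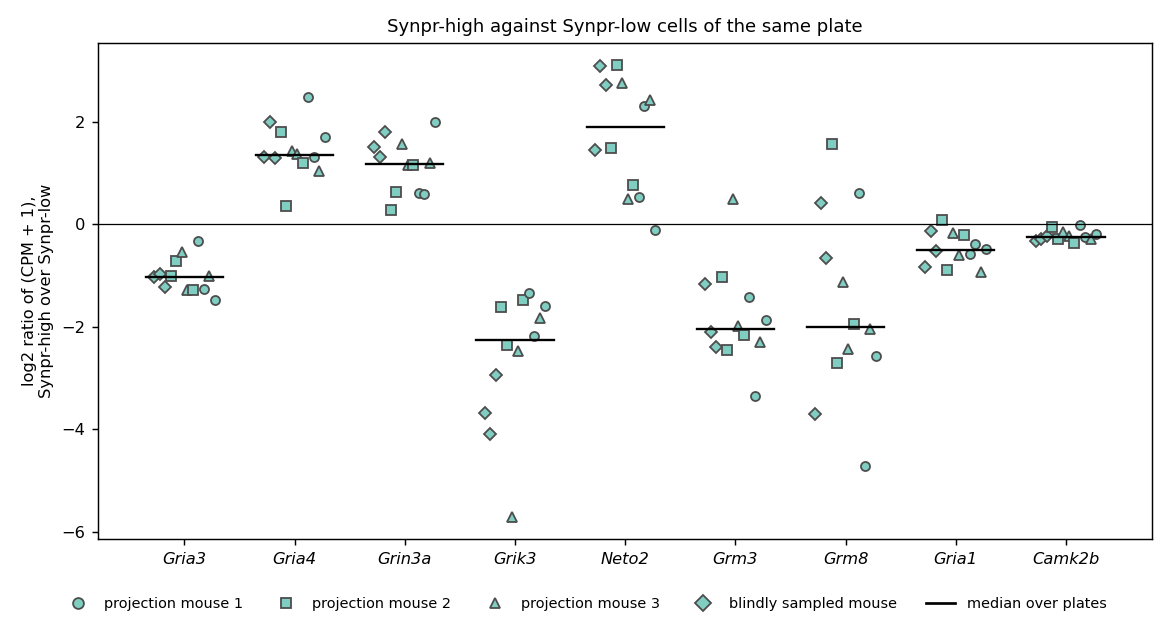
Log2 ratio of CPM + 1 in Synpr-high over Synpr-low cells of the same plate (y axis) for 9 genes, 1 point per plate over 12 plates, with the marker giving the mouse and the bar the median over plates. Gria4 and Grin3a lie above 0 in 12 plates, and Gria3, Grik3 and Camk2b lie below 0 in 12.

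Shares of a family's counts need no scaling between sums, but a share also moves when another gene of the family changes. Of 29 shares, 9 did not overlap between Synpr-high and Synpr-low sums. Each of these had an exact two-sided permutation p of 0.0286, the smallest that 4 sums against 4 allow, and a Benjamini-Hochberg adjusted p of 0.0922, so 0 of 29 passed after adjustment. Gria3 made up 9.40% ± 0.16 of AMPA receptor counts in Synpr-high and 18.4% ± 2.43 in Synpr-low sums (SD, n = 4), and Gria4 10.6% ± 1.32 against 3.84% ± 1.22. Grin3a took 29.9% ± 4.48 of NMDA receptor counts against 14.8% ± 5.48. Among kainate receptor counts, Grik3 fell from 47.7% ± 3.08 in Synpr-low to 18.4% ± 5.39 in Synpr-high sums, and the share of Grik5 was 46.8% ± 6.93 in Synpr-high and 24.3% ± 4.90 in Synpr-low sums while its level was close in both. Neto1 made up 51.7% ± 2.56 of Neto counts in Synpr-high and 83.2% ± 4.63 in Synpr-low sums, the remainder being Neto2, although the level of Neto1 was close in both. Grm2 was 26.4% ± 4.64 of group II counts against 7.14% ± 2.53, and its level, like that of Grm7, did not pass. In group III, Grm7 was 78.4% ± 5.74 against 58.2% ± 3.60 and Grm8 19.4% ± 5.59 against 38.7% ± 5.05. A share is of reads from transcript ends and not of receptor molecules, and shares within a family are not independent.

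**Figure D3:**
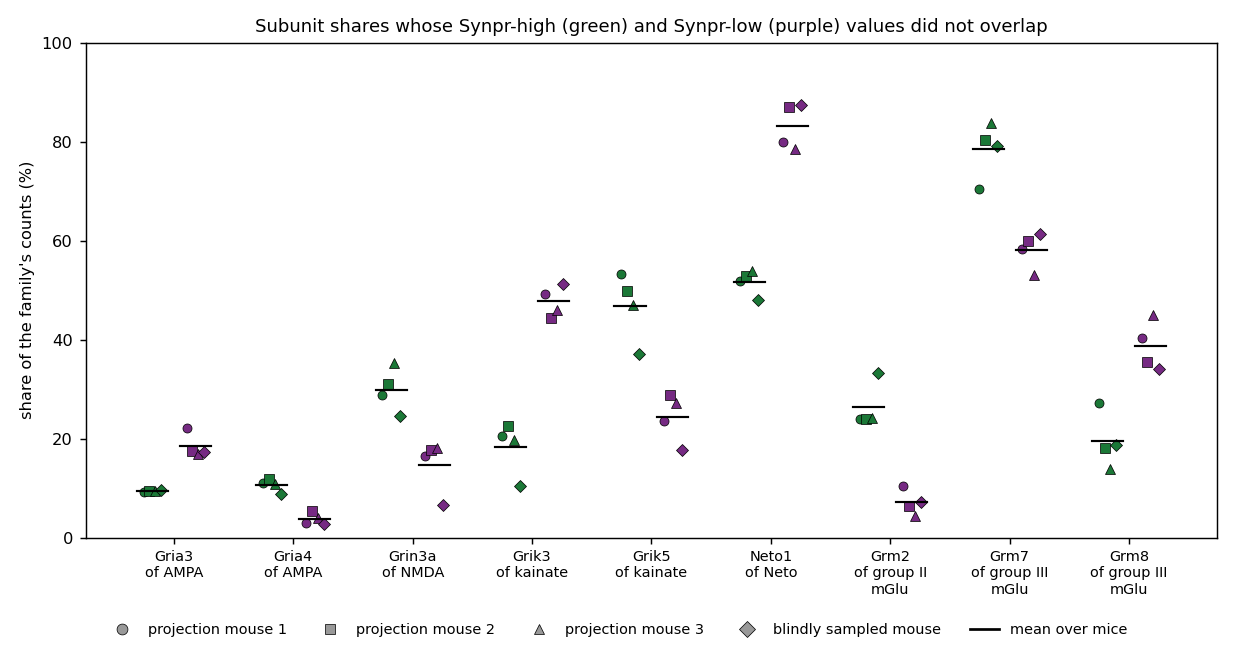
Share of the family's counts in percent (y axis) for the 9 shares that did not overlap, 1 point per mouse, green for Synpr-high and purple for Synpr-low sums, with a bar at the mean over 4 mice. Gria3, Grik3, Neto1 and Grm8 are lower in green, and Gria4, Grin3a, Grik5, Grm2 and Grm7 are higher in green.

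Synpr-low cells were not of 1 kind, so they were split by whether a layer 6 marker list or a claustrum shell marker list scored higher, into 445 shell-marker and 128 layer 6-marker cells, of which 22 lay within 0.25 of the cut. The layer 6 list summed to 911 to 1329 CPM in the layer 6-marker class and to at most 46.3 in the other classes, whereas the shell list was also high in the layer 6-marker class, at 1421 to 2915 CPM against 2460 to 4192 in the shell-marker class. Against shell-marker cells alone, 5 of the 31 genes passed in Synpr-high cells, with 5.12% of all 12833 genes past the threshold. These were Gria4 and Neto2, higher, and Gria3, Grik3 and Grm3, lower. The log2 fold change of Neto2 was 2.59 ± 0.50 (edgeR adjusted p = 0.00653), that of Grik3 -2.08 ± 0.28 (0.000513) and that of Grm3 -1.81 ± 0.21 (0.000126). Gria3 (-1.14 ± 0.26) and Gria4 (1.10 ± 0.29) were nearer the threshold, with edgeR adjusted p of 0.0181 and 0.0447, and each lost its call when projection mouse 1, 2 or 3 was left out (0.0524 to 0.128 and 0.0691 to 0.338). Gria4 also lost it with thinned cells (0.0574), and Neto2 lost its call without projection mouse 1 (0.0708). Gria1 joined them with the mouse as a block (-0.56 ± 0.12, edgeR adjusted p = 0.0148, range over alternatives 0.0148 to 0.533). The astrocyte list was at 135 to 166 CPM in Synpr-high and 37.4 to 112 in shell-marker sums, without overlap. Of its 6 genes, 1, 2, 1 and 4 were at 0 in the Synpr-high sums of projection mice 1, 2 and 3 and the blindly sampled mouse. In the shell-marker sums 2, 2, 1 and 2 were at 0. The oligodendrocyte list was lower in the Synpr-high sum in 4 of 4 mice (51.5 to 412 against 66.7 to 857 CPM). The part of these lists was not tested.

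Grin3a gave the widest range of the 3 classes. Layer 6-marker sums held 0.741, 1.55 and 22.6 CPM of Grin3a in projection mice 1 to 3 and 13.4 in the blindly sampled mouse, while shell-marker sums held 113, 123, 116 and 51.5. All 4 layer 6-marker values were below all shell-marker values. Between these classes 4 of the 31 genes passed, with 5.11% of all genes past the threshold, and Grin3a had a log2 fold change of -3.48 ± 0.69 (edgeR adjusted p = 0.00895). Gria4 was also lower in layer 6-marker cells, at 22.5 ± 9.81 against 56.4 ± 18.5 CPM (-1.30 ± 0.30, edgeR adjusted p = 0.0220), and so was Gria1, at 169 ± 46.6 against 289 ± 34.5 CPM (-0.77 ± 0.20, 0.0357). Grm3 was higher, at 98.8 ± 16.2 against 58.8 ± 12.3 CPM (0.75 ± 0.20, edgeR adjusted p = 0.0470). Without projection mouse 2, 0 of the 30 genes then tested passed, and 299 of all 11832 genes did. The edgeR adjusted p of the 4 genes then ran from 0.0921 for Grin3a to 0.188 for Gria4. Log2 fold changes of -2.96 for Grin3a and -0.95 for Gria4 remained. Without projection mouse 1 the calls of Gria1 (0.0809), Gria4 (0.0896) and Grin3a (0.05002) were lost, without projection mouse 3 those of Gria1 (0.217) and Grm3 (0.295), and without the blindly sampled mouse that of Grm3 (0.154). With cells thinned to equal depth, Grm3 (log2 fold change 0.43 ± 0.28, 0.518) and Gria4 (0.0611) were lost. The astrocyte list was at 423 to 929 CPM in layer 6-marker and 37.4 to 112 in shell-marker sums, with 4 or 5 of its 6 genes at 0 in each layer 6-marker sum, Aqp4, Gfap and Aldh1l1 among them. The oligodendrocyte list was at 66.7 to 857 CPM in shell-marker and 32.0 to 91.2 in layer 6-marker sums. In projection mouse 3 the inhibitory list stood at 286 CPM in the layer 6-marker sum, and the part of these lists in the results was not tested.

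**Figure D4:**
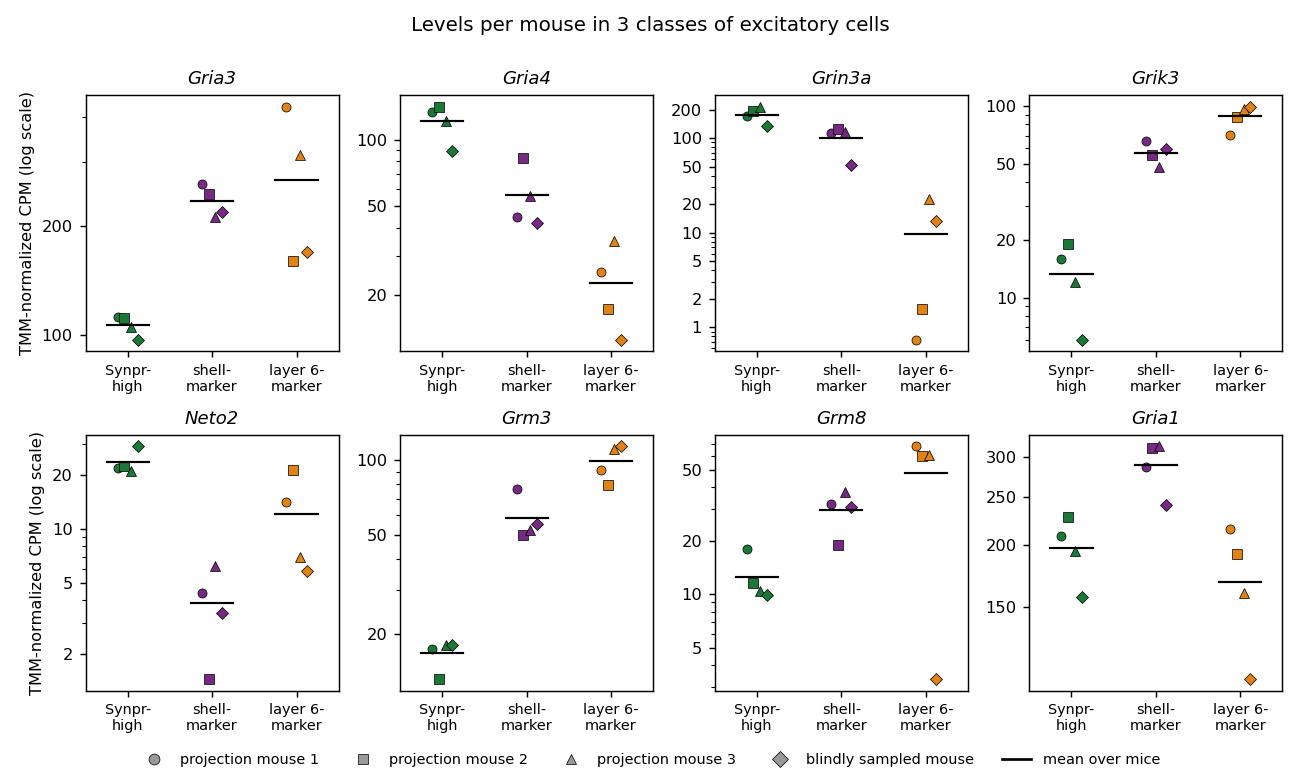
TMM-normalized CPM on a log scale (y axis) of 8 genes in Synpr-high, shell-marker and layer 6-marker cells, 1 point per mouse with a bar at the mean over 4 mice. Grin3a descends from 177 CPM in Synpr-high to 101 in shell-marker and 9.56 in layer 6-marker cells, and Grm3 rises from 16.8 to 58.8 and 98.8.

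The second comparison asked whether cells labelled from RSC and from LEC differ in these genes, in the 3 mice that had both. The labels went with the Synpr classes, since 213 of 247 RSC cells were Synpr-high and 241 of 286 LEC cells were Synpr-low, and both comparisons use the same cells in part. Of the 31 genes 4 passed, with 3.82% of all 13241 genes past the threshold, and 11 showed no overlap, against 22.5% of all genes. Neto2 was higher in RSC cells, at 26.4, 26.5 and 23.6 CPM in projection mice 1, 2 and 3 against 5.77, 4.61 and 6.12 in LEC cells. The log2 fold change of Neto2 was 2.21 ± 0.28 (edgeR adjusted p = 0.00571). Grm3 was lower, at 25.1, 18.5 and 21.3 CPM against 64.6, 45.65 and 57.4 (log2 fold change -1.37 ± 0.22, edgeR adjusted p = 0.0120), with RSC values all below LEC values. Gria3 was at 108, 128 and 112 CPM against 225, 216 and 167 (-0.81 ± 0.15, edgeR adjusted p = 0.0211), and Grik3 at 17.7, 26.7 and 13.6 against 57.5, 48.2 and 38.2 (-1.32 ± 0.29, edgeR adjusted p = 0.0416), neither with overlap. The median log2 fold change was 0.01 over the 31 genes and 0.00 over all genes.

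Gria4 was higher in RSC cells in 3 of 3 mice without overlap, at 126, 128 and 110.3 CPM against 60.9, 97.2 and 51.1, but did not pass (log2 fold change 0.80 ± 0.23, edgeR adjusted p = 0.104, range over alternatives 0.00693 to 0.394). Grin3a was at 169 ± 16.3 against 132 ± 8.61 CPM (SD, n = 3) and also did not pass (edgeR adjusted p = 0.181). The calls rested on all 3 mice. Neto2 alone passed without projection mouse 1, where 343 of all 13622 genes did. Without projection mouse 2 or 3, 0 of the 31 passed, and 46 of 13814 and 21 of 13288 genes over all did. There the edgeR adjusted p was 0.0878 and 0.112 for Neto2 and 0.0877 and 0.211 for Grm3. Without projection mouse 1 it was 0.113 for Gria3, 0.209 for Grik3 and 0.0562 for Grm3. Log2 fold changes kept their sign in these fits, from 2.07 to 2.34 for Neto2 and from -0.91 to -0.67 for Gria3.

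Plate and projection label cannot be told apart for most cells, because only plate 12, of projection mouse 3, held kept cells of both labels, 34 RSC and 44 LEC. Within it Neto2 was at 20.1 CPM in RSC and 2.92 in LEC cells, Grm3 at 23.2 and 71.6, Grik3 at 12.3 and 26.4, Gria4 at 130.4 and 54.4, and Gria3 at 135 and 159. The direction was that of the sums for all 5, and the gap of Gria3 was narrower. Without plate 12 the same 4 genes passed. With the mouse as a block as well, Grik3 was lost (edgeR adjusted p = 0.0612). The inhibitory list was at 133 and 199 CPM in the RSC sums of projection mice 1 and 3 and at most 6.80 in the other 4 sums. Without cells that had Gad1 or Gad2 counts the same 4 genes passed, Neto2 with a log2 fold change of 2.25. The oligodendrocyte list reached 1048 CPM in the RSC sum of projection mouse 1, against 59.4 to 410.5 elsewhere. The astrocyte list did not overlap, at 203, 184 and 156 CPM in RSC and 103, 52.8 and 49.0 in LEC sums. Of its 6 genes, 3, 3 and 1 were at 0 in the RSC sums and 1, 2 and 1 in the LEC sums. The part of these lists was not tested.

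Within a Synpr class the projections were not shown to differ in these genes. In Synpr-high cells 0 of the 31 genes and 0.0% of all 12409 genes passed by edgeR. At an unadjusted p under 0.05 were 2 of the 31 and 508 of all genes. DESeq2 called 0 of the 31 and 21 of all genes. In Synpr-low cells 0 of the 31 passed by edgeR, with 0.193% of all genes past the threshold. At an unadjusted p under 0.05 were 4 of the 31 and 1413 of all genes. DESeq2 called 1 of the 31, Neto2, and 292 of all genes. Here the sums were small, since 34 RSC cells were Synpr-low and 45 LEC cells were Synpr-high. Neto2 was at 18.9, 10.03 and 6.32 CPM in RSC Synpr-low and 2.03, 1.37 and 4.64 in LEC Synpr-low sums, without overlap (log2 fold change 2.12 ± 0.63, edgeR adjusted p = 0.233), and over the alternatives its log2 fold change ran from -1.11 to 3.04, so that its direction was not stable. Grm8 was at 27.3, 18.1 and 12.1 CPM in RSC Synpr-high and 0.674, 2.79 and 6.28 in LEC Synpr-high sums, also without overlap, the latter resting on 30 counts (2.57 ± 0.88, edgeR adjusted p = 0.999). The difference between the projection contrasts of both classes, tested as an interaction, passed for 0 of the 31 genes and 0.0645% of all genes by edgeR. At an unadjusted p under 0.05 there were 3 of the 31 and 1030 of all genes. DESeq2 called 1 of the 31, Dlg2, and 115 of all genes.

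Between Synpr classes of 1 projection, the means of the 7 genes lay in the same directions as over all cells, but among RSC cells Grik3 was higher in Synpr-high cells in 1 of 3 mice and Grm8 in 2 of 3. Among LEC cells 1 of the 31 passed by edgeR, with 2.59% of all 12409 genes past the threshold, while DESeq2 called 7 and 839 of all genes. Neto2 was at 14.4, 19.97 and 13.8 CPM in LEC Synpr-high and 2.03, 1.37 and 4.64 in LEC Synpr-low sums (log2 fold change 2.56 ± 0.63, edgeR adjusted p = 0.0490), and the call was lost with the mouse as a block (0.0922, range over alternatives 0.000626 to 0.407), where Grm3 passed instead (0.0409). The call of Neto2 was also lost without projection mouse 1 (0.284), 2 (0.407) or 3 (0.108), and with a Synpr limit of 100 CPM (0.0640). Among RSC cells 0 of the 31 passed by edgeR, with 1.6% of all genes past the threshold. At an unadjusted p under 0.05 were 6 of the 31 and 1808 of all genes. DESeq2 called 3 of the 31 and 662 of all genes. Gria4 was at 141, 150.1 and 112 CPM in RSC Synpr-high and 24.6, 41.4 and 76.7 in RSC Synpr-low sums (log2 fold change 1.51 ± 0.40, edgeR adjusted p = 0.0884, range over alternatives 0.00148 to 0.396).

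**Figure D5:**
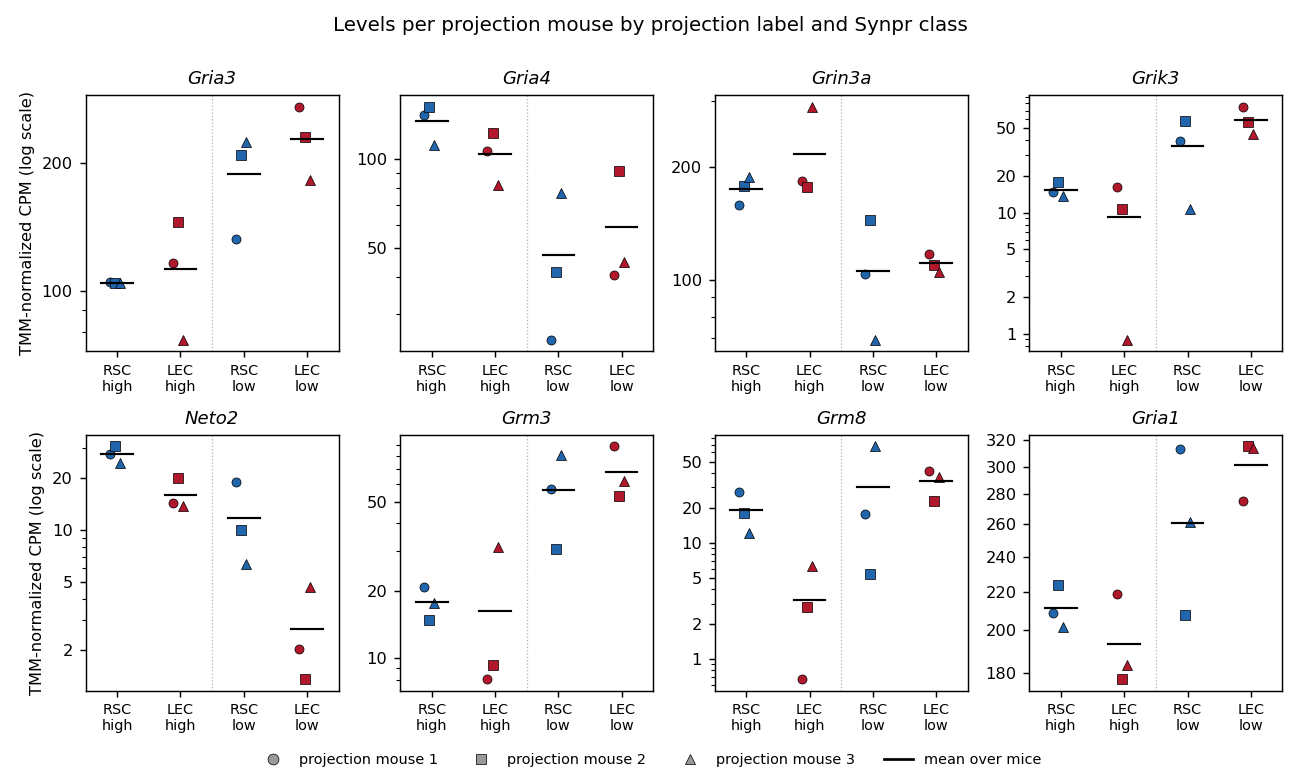
TMM-normalized CPM on a log scale (y axis) of 8 genes in RSC and LEC cells of the Synpr-high and Synpr-low classes, 1 point per projection mouse with a bar at the mean over 3 mice. Gria3 is at 105 CPM in RSC and 113 in LEC Synpr-high cells and at 189 and 228 in the Synpr-low cells, so for Gria3 the larger step is between the Synpr classes. RSC values lie above all LEC values for Grm8 in Synpr-high cells and for Neto2 in Synpr-low cells. Neither passed there by edgeR, and the share of all genes without overlap was not counted within a class.

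Other genes of glutamatergic synapses, from a list of 52 that excluded the genes above, were also tested, and 47 passed the filter. This list too was chosen with earlier results of these data known. Between Synpr classes 10 were higher and 2 lower in Synpr-high cells, against 610 higher and 592 lower over all genes. The total of 12 became 6, 6 and 7 without projection mouse 1, 2 or 3, and 18 (13 higher and 5 lower) with the mouse as a block. Over all genes the total of 1202 became 606, 656 and 544, and 1994 with the block. Shisa6 and Gsg1l, both AMPA receptor auxiliary subunits, were among the higher ones. Shisa6 stood at 45.0 against 2.68 CPM (log2 fold change 4.04 ± 0.35, edgeR adjusted p = 9.3e-05) and Gsg1l at 109.8 against 36.3 (1.61 ± 0.32, 0.0102). Camk2n1, an inhibitor of CaMKII, was at 748 against 310.1 CPM (1.27 ± 0.14) and Camk2g, a further CaMKII subunit, at 117 against 69.8 (0.74 ± 0.16). Homer1, the scaffold of group I metabotropic receptors, was at 138 against 60.8 CPM (1.19 ± 0.23). Kalrn, a guanine nucleotide exchange factor of dendritic spines, was at 290.1 against 144 CPM (1.02 ± 0.13), and Dlgap4, which links Dlg and Shank proteins, at 408 against 267 (0.61 ± 0.09). Among the lower ones was Nptx1, a secreted pentraxin that clusters AMPA receptors, at 169 against 383 CPM (-1.18 ± 0.15).

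Between RSC and LEC cells 7 genes of this list were higher and 2 lower in RSC cells, against 254 higher and 252 lower (3.82%) over all genes. Without projection mouse 2 or 3, 0 of the list passed by edgeR, and 46 of 13814 and 21 of 13288 genes over all did. At an unadjusted p under 0.05 were 13 and 12 of the list, and 1801 and 1445 of all genes. With all 3 mice DESeq2 called 13 of the list and 1120 of all 13241 genes. With the mouse as a block edgeR called 11 of the list (9 higher and 2 lower) and 423 of all genes. Gsg1l was at 118 against 22.6 CPM (log2 fold change 2.38 ± 0.30, edgeR adjusted p = 0.00565) and Shisa6 at 39.6 against 11.5 (1.78 ± 0.29, 0.0136). Nptx1 was again among the lower ones (-0.94 ± 0.13).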

How the data were processed

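Counts per gene and cell were deposited by the authors without normalization, 1 table holding the blindly sampled mouse and another the other 3 mice, beside tables giving each cell's animal and projection label. The authors tagged reads to barcodes and UMIs and aligned them with STAR. The submitters' processing notes name the build NCBIM37 and Seurat, while the STAR version, annotation and use of strand are not given in the sources used here. Totals are stated in reads, so a count was taken as a read, and intervals would cover counting error only. Of the 35 genes, 19 share exon bases with another gene of the GENCODE M21 annotation, mostly small or noncoding RNAs, and with strand unstated such reads cannot be told apart. No cell name occurred more than once among 1112.

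ERCC spike-ins were left out. Sums per mouse and class of at least 5 cells were tested with edgeR 4.0.16 (TMM, filterByExpr, quasi-likelihood F test, Benjamini-Hochberg, threshold 0.05) in R 4.3.3, without the mouse as a term. Levels are TMM-normalized CPM and errors are SDs over mice. Alternatives were DESeq2 1.42.0, its size factors in edgeR, no filter, the mouse as a replicate block, leaving out each mouse, cells thinned to 20000 counts, cells of at least 5000 counts, genes of both tables, no Gad1 or Gad2 cells, limma 3.58.1 on mean CPM per cell (log2 with 1 added) and Synpr limits of 100 and 500 CPM. Synpr was left out of counts of calls. Shares were compared by exact permutation over sums.

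The sums paired by the block are from 1 animal. Deviations from group means correlated across genes with a median of 0.168 (range, 0.138 to 0.503) between Synpr classes of a mouse over 4 pairs, and 0.0421 between its projections over 3 pairs. Where the block changed a call in a comparison reported here, it is given beside the result. Synpr-high cells were also fitted against layer 6-marker cells, and those calls are not reported.

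Tests were tried on simulated sums with 200 changed genes. Recovery at a 4-fold change was 65% for the Synpr classes (13641 genes), 55% for the projections (13242 genes), 39% for projections within Synpr-high cells (12410 genes) and 76% for Synpr-high against shell-marker cells (12834 genes). At 2-fold it was 18%, 18%, 8% and 28%. Of the calls, 3.49%, 7.59%, 7.84% and 7.96% were of unchanged genes.

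All 35 genes were named, and of the list of 52 the 10 with the smallest adjusted p past the threshold, some of which are not reported here. The genes, lists and classes were chosen with earlier results of these data known. Marker and other cell lists are given as sums. Differences along the anterior-posterior axis were not analysed here.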

Additional observations from a re-analysis of the deposited data

Results flagged for a closer look

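In groups of 4 mice, a gene was looked at again where the highest or lowest mouse lay apart from the other 3 by more than Dixon's 95% critical value for 4 samples, taken as a share of the whole range. Of 124 groups 13 did, where chance gives about 1 in 20.

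In Synpr-high sums, Gria2 was 748 CPM in projection mouse 1 against 688 to 698 in the others, and Grm8 was 17.8 there against 10.3 to 11.4. The blindly sampled mouse had 33.7 CPM of Grid1 against 14.1 to 16.3, and 29.9 of Neto2 against 20.9 to 22.1. In Synpr-low sums the same mouse had 321 CPM of Grin2b against 188 to 199, and projection mouse 2 had 743 of Camk2b against 616 to 634.

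In shell-marker sums, projection mouse 1 was low for Gria2 (644 CPM against 732 to 746) and for Grid1 (8.27 against 17.0 to 18.4). Projection mouse 2 was high for Grm4 (2.97 CPM against 0.892 to 1.13) and for Neto1 (30.2 against 21.8 to 22.9), and the blindly sampled mouse was low for Grin3a (51.5 against 113 to 123). In layer 6-marker sums, which held 26 to 40 cells a mouse, Grin2a was 126 CPM in projection mouse 1 against 32.5 to 38.5, and Grm8 was 3.35 in the blindly sampled mouse against 60.0 to 68.0. Without projection mouse 1, Grin2a passed as lower in layer 6-marker than in shell-marker cells, with a log2 fold change of -1.30 ± 0.20 and an edgeR adjusted p of 0.00769, and it passed in no other alternative of that comparison.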

How the results depend on the processing

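Of the 31 genes, those that passed under any setting between Synpr classes, between projections or in the 3-class comparisons kept their sign in that comparison under every alternative run. Of 1012 values of genes that passed nowhere, 60 changed sign. Leaving out 1 mouse gave 4 to 8 of the 31 genes and 544 to 1580 of all genes between Synpr classes (4 genes without projection mouse 3), and 0 to 1 and 21 to 343 between projections. It gave 2 to 6 of these genes and 243 to 687 of all genes for Synpr-high against shell-marker cells. For layer 6-marker against shell-marker cells it gave 0 to 3 and 295 to 684. With the replicate block 1994 of all genes passed between Synpr classes, and 1941 with plate 12 also left out, a setting chosen after seeing the data that gave 176 between projections. DESeq2 called 1120 genes between projections and thinned cells 788. DESeq2 also called 1 of the 31 and 292 of all genes for projections within Synpr-low cells, and 1 and 115 for the interaction. Thinning left 2, with 552 of all 10199 genes, for layer 6-marker against shell-marker cells. Apart from the calls named in the report, the block changed none for these genes in the comparisons given there. It added Grin1 between Synpr-high and layer 6-marker cells (log2 fold change -0.36 ± 0.11, edgeR adjusted p = 0.0384, range over alternatives 0.0384 to 0.305), a comparison not otherwise reported. No share passed under any alternative, but for many this was fixed beforehand. Between projections, and between Synpr classes with a mouse left out, at most 3 sums stood against 3, which cannot give an exact p under 0.1. Sign flips of the differences within 3 or 4 mice, the paired alternative, could not give a p under 0.05 either. The depth of the sums and the number of mice limit what could be seen: at a 2-fold change recovery in simulation was 8% to 28%.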

Other observations

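Unlabelled cells of the projection mice, of which 67 were Synpr-high and 173 Synpr-low, and cells of the blindly sampled mouse carry no projection label, and their levels are given as CPM of all counts without a test. Of the unlabelled cells 77 were layer 6-marker cells, against 8 of the 247 RSC and 9 of the 286 LEC cells. The part of this makeup in the levels was not tested. Grik5 and Homer2 were chosen after their values were seen. Neto2 was at 25.2 ± 1.56 CPM in RSC, 10.3 ± 1.32 in unlabelled and 5.56 ± 0.80 in LEC cells (SD, n = 3 mice), with the ranges of the 3 labels apart, and at 15.2 in the blindly sampled mouse. Grm3 was at 56.5 ± 9.72 CPM in LEC, 47.4 ± 12.2 in unlabelled and 21.3 ± 3.36 in RSC cells and at 46.6 in the blindly sampled mouse, where LEC and unlabelled values overlapped. Grik5 was at 27.2 ± 1.09 CPM in unlabelled cells, from 25.9 to 27.9, below its 33.9 to 48.5 in RSC and 29.0 to 49.0 in LEC cells. Homer2 was at 25.6 ± 8.39 CPM in unlabelled, 21.6 ± 3.40 in RSC and 13.1 ± 2.36 in LEC cells, with LEC values below those of the other labels in these mice.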
